A study of Homo sapiens with 28 samples.

Results

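Notch signalling was followed through 8 of its genes, of 19775 genes with a probe set of 1 gene symbol, in tumours grown in mice from 2 human renal carcinoma lines, with or without a VEGF receptor kinase inhibitor. The genes were the ligands DLL4, JAG1 and JAG2, the receptors NOTCH1, NOTCH2 and NOTCH3, and the target genes HEY1 and HES1, taken by name. They were selected on the deposited signals, because DLL4 was higher in sunitinib-resistant than in untreated 786-O tumours, so the values of these 8 genes in that arm are given as a description without a test. The reason for the choice named no difference in the other arms, but it was made with earlier results of these data known. The 8 genes were read by 22 probe sets. Of the 8, 7 passed a filter on low values and NOTCH3 did not.

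Notch receptors are cut after a ligand on a neighbouring cell binds them, and the freed intracellular part joins the DNA-binding protein RBPJ in the nucleus to switch on target genes such as HES1 and HEY1. In growing vessels DLL4 is carried by endothelial tip cells and restrains sprouting by their neighbours, while JAG1 can counter DLL4 where receptors are modified by Fringe enzymes. VEGF raises DLL4 in endothelium, and tumour cells, pericytes and endothelium all can carry JAG1 and NOTCH receptors.

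The tumours were subcutaneous growths of 786-O or A498 cells in female athymic nude/beige mice injected at 6 to 8 weeks of age, and both lines are deficient in VHL, which leaves hypoxia-inducible factors switched on in every group. In 786-O, 5 untreated and 5 resistant tumours made up the sorafenib arm (80 mg/kg) and 5 untreated and 4 resistant tumours the sunitinib arm (53.6 mg/kg). A498 had 4 untreated and 5 resistant tumours, all of a sorafenib arm (80 mg/kg). Both drugs inhibit VEGF and PDGF receptors, and were given by gavage 6 days a week once a tumour measured 12 mm across; resistant tumours had grown on under the drug, with a limit of 20 mm. The size and time at which untreated tumours were taken are not in the labels, and neither is the number of mice, so that p-values measure the spread between these tumours. Each line is a single cultured line, and vessels and stroma came from the mouse, whose RNA reaches human probes only where sequences are alike.

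The values are deposited linear signals of 28 Affymetrix HG-U133 Plus 2.0 arrays, scaled to 1 trimmed mean (500.06 to 500.07 on every array), with array medians of 79.7 to 99.4. The number of arrays limits the precision. A gene is given by its brightest probe set, and differences are resistant minus untreated on the log2(signal + 16) scale, which understates changes of dim genes. The filter kept 13808 genes that were above signal 89.4, the median of all values, on at least 4 arrays. A gene is said to have risen or fallen where limma's adjusted p (Benjamini-Hochberg over those 13808 genes) was under 0.05. Of the tumour line markers, PAX8, VIM, KRT8, KRT18, KRT19, CDH6 and NNMT were above that signal on all 28 arrays. Endothelial markers were largely dim. Of 20 listed, 6 passed the filter, and CDH5, KDR, TEK, VWF, ESAM, EMCN, ERG, CLEC14A and ICAM2 were above it on 0 of the 28 arrays.

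Promoters of 3 of the genes are shown because their motifs bear on the pathway: HES1 as the target that RBPJ binds, JAG1 as the ligand whose signal fell, and DLL4 as the ligand that was higher. Each run holds 250 bases before and 50 after the gene's start from RefSeq (GRCh38.p14), read 5′ to 3′ on the gene's own strand. All 7 genes looked up here had an entry; HEY1 was not searched. Capitals mark the core motif of RBPJ (TGGGAA) in HES1 and ACGTG in JAG1, each searched on both strands. ACGTG is a form of the core motif of hypoxia-inducible factors, and the form GCGTG was neither searched nor marked.
HES1 (chr3:194135898-194136197, plus strand): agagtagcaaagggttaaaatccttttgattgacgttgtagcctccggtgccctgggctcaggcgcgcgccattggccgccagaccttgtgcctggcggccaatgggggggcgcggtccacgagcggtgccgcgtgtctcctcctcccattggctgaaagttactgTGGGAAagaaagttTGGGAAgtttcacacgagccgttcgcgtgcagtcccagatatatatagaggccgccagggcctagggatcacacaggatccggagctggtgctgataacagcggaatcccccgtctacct
JAG1 (chr20:10673950-10674249, minus strand): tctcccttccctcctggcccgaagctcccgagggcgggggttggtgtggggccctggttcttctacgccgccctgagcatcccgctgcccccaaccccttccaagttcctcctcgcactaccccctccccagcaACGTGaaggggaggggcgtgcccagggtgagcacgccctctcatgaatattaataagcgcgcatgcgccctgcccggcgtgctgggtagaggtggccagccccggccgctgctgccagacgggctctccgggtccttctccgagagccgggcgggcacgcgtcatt
DLL4 (chr15:40929090-40929389, plus strand): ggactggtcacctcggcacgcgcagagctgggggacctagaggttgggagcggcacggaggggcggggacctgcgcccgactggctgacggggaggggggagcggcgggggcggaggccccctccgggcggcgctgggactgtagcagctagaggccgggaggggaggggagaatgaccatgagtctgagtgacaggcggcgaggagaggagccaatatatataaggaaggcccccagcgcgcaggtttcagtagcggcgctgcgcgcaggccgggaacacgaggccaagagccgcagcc
The HES1 window held the RBPJ core at 84 and 70 bases before the start, and it was the only one of the 7 windows searched with that core. It stood in 24.03% of 35116 promoters and in 22.08% of the 11113 promoters of tested genes. The ACGTG core stood 116 bases before the JAG1 start and in 21.41% of all promoters, and in 26.05% of those of tested genes. The windows of DLL4, JAG2, NOTCH1, NOTCH2 and NOTCH3 held neither TGGGAA nor ACGTG, which says nothing of GCGTG.

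DLL4, the endothelial ligand, was higher in every sunitinib-resistant tumour than in any untreated tumour of that arm. Its signals were 39.6, 17.1, 12.2, 18.9 and 26.9 in the 5 untreated tumours and 51.9, 91.3, 128.5 and 160.8 in the 4 resistant tumours. The ranges do not overlap, and the difference was 1.63 ± 0.37 (SE) on the log2(signal + 16) scale. These are the values that chose the gene. The gene was dim throughout: it had 1 probe set, passed 89.4 on 9 of 28 arrays, and on 0 of 5 untreated against 3 of 4 resistant arrays of this arm. The size of the difference depended on the constant added before the logarithm, being 2.18 with 1 and 0.95 with 64.

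Under sorafenib DLL4 showed no such separation. In 786-O its signals were 33.6, 33.0, 108.2, 15.4 and 87.5 untreated and 101.6, 22.8, 96.7, 93.3 and 62.2 resistant. The groups overlapped over most of their range, and the difference of 0.43 ± 0.35 (SE) did not pass limma's test (adjusted p = 0.449). In A498 the untreated tumours gave 108.8, 54.6, 71.3 and 110.5 and the resistant tumours 73.8, 31.4, 46.5, 49.98 and 83.1. Here the resistant mean was the lower one, with a difference of -0.50 ± 0.37 (SE) with overlapping groups (adjusted p = 0.481). The difference between the lines, -0.93 ± 0.51 (SE), did not pass the test either (adjusted p = 0.309). Endothelial marker sums were 968.8 to 1342.7 untreated and 837.3 to 1278.1 resistant in 786-O, and 1295.7 to 1356.2 and 1145.5 to 1803.7 in A498. In 786-O 1 of 6 tested markers, the receptor TIE1, fell, a share (16.67%) near the 15.2% of all genes called. The part of endothelium in these DLL4 values was not tested.

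From lowest to highest mean, DLL4 ran from untreated 786-O of the sunitinib arm (5.24 on the log2 scale) through untreated 786-O of the sorafenib arm, resistant A498, resistant 786-O with sorafenib and untreated A498 to sunitinib-resistant 786-O (6.87). Each step was between groups whose tumours overlapped. The low end of this order is the sunitinib arm's own untreated group, whose values helped choose the gene. Untreated 786-O tumours of the sorafenib arm lay 0.73 ± 0.35 (SE) above it, and 2 of those 5 tumours, at 87.5 and 108.2, reached the range of the sunitinib-resistant tumours. Titles of the 786-O tumours, untreated and resistant, carry the number 33 in the sorafenib arm and 35 in the sunitinib arm. All A498 titles carry 35. The meaning of these numbers is not given, and between the sorafenib arms line and title number cannot be told apart.

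Endothelial marker signal overlapped between the sunitinib groups, and most of these markers were dim. The sum over the 20 markers, 14 of them below the filter, was 1003.5 to 1169.6 in untreated and 926.4 to 1165.7 in resistant tumours. In limma, where 5.06% of all genes were called, 0 of the 6 tested markers rose or fell, with 1 at an unadjusted p under 0.05. That 1 was TIE1, with a difference of -1.16 ± 0.42 (SE; adjusted p = 0.115). Among markers below the filter, TEK gave -1.07 ± 0.30 (SE) and PLVAP 0.96 ± 0.44 (SE), neither tested. In whole tumours, fewer cells of a type and less RNA per cell cannot be told apart. Skeletal muscle markers summed to 410.3 to 1303.4 in untreated and 815.7 to 1853.3 in resistant tumours of that arm, with overlapping ranges and 0 of 5 tested markers called (0 at an unadjusted p under 0.05). Their part in the DLL4 values was not tested.

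**Figure D1:**
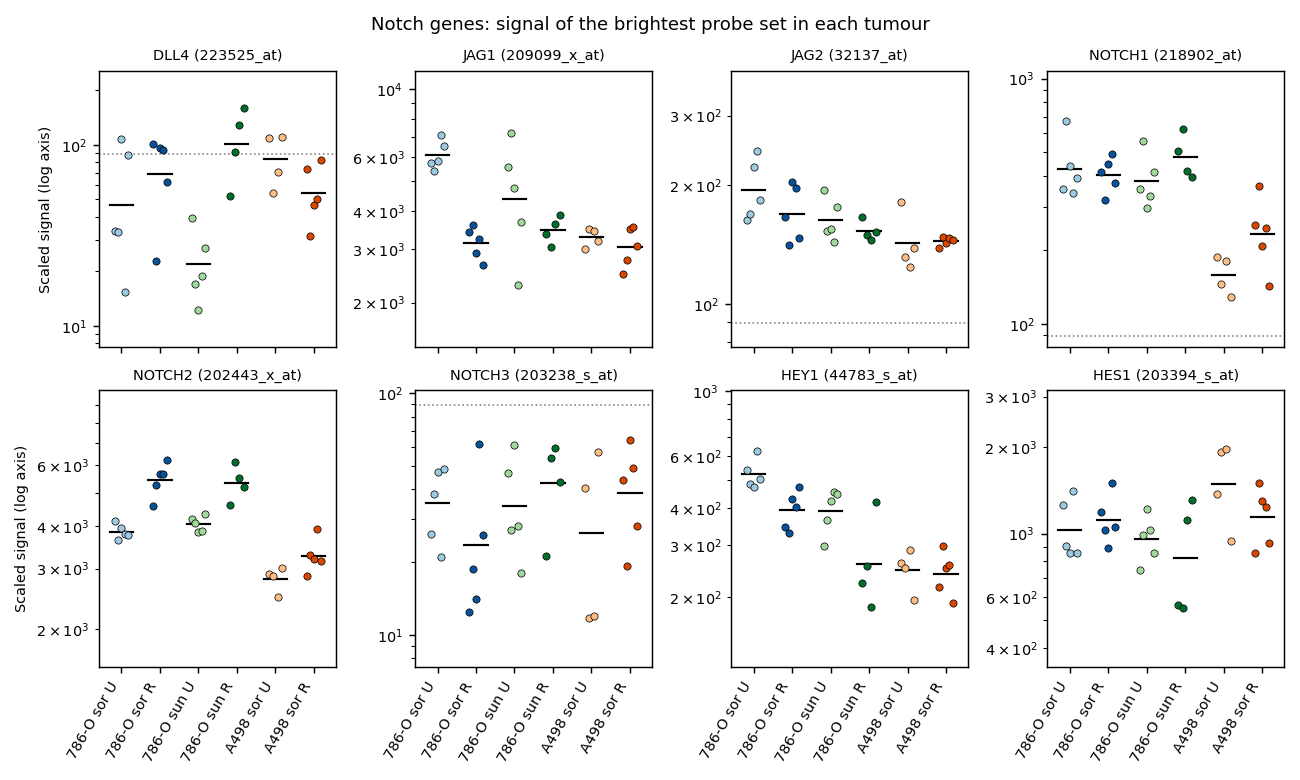
Scaled signal (log axis) of the brightest probe set of each of the 8 genes in every tumour; sor and sun are the sorafenib and sunitinib arms, U untreated and R resistant, bars mark group means taken on the log2(signal + 16) scale, and the dotted line is signal 89.4. DLL4 in sunitinib-resistant 786-O lies between 51.9 and 160.8, above all untreated tumours of that arm, while all NOTCH3 points lie under the line.

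JAG1, a ligand that binds the same receptors as DLL4, fell in sorafenib-resistant 786-O tumours. The untreated tumours gave signals of 5718, 5386, 5832, 7059 and 6510.1, and the resistant tumours 3405, 3590.4, 2900.0, 3235 and 2657. No resistant tumour reached the lowest untreated one. The difference was -0.95 ± 0.19 (SE; limma adjusted p = 0.00105), and -0.89 to -0.997 when any 1 tumour was left out. All 4 JAG1 probe sets above the filter fell in this arm, with differences of -0.94, -0.71 and -0.71 beside the brightest, and the other 2, whose signals were 5.44 to 53.4 there, gave differences of -0.80 and -0.31.

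In the sunitinib arm the brightest JAG1 probe set gave 5565, 7193, 4758, 2285 and 3671 in untreated tumours and 3358, 3040.0, 3626 and 3860 in resistant tumours. The untreated group was spread wide, with 1 tumour below all resistant ones, and the difference was -0.34 ± 0.20 (SE). The 5 other probe sets differed in how far they set the groups apart. The share of all probe sets that separate these groups was not counted. Probe set 231183_s_at gave 654.8, 885.1, 708.6, 562.9 and 567.2 untreated and 305.0, 334.3, 356.2 and 239.6 resistant, a difference of -1.09 ± 0.15 (SE) with no overlap. For 209098_s_at the difference was -0.70 ± 0.17 (SE), also without overlap. That of 216268_s_at was -0.27 ± 0.17 (SE) with overlapping groups, and the 2 below the filter gave -0.11 and -0.01. The probe sets of this gene thus agreed on direction and not on size under sunitinib.

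A498 tumours held JAG1 signals close to each other whether treated or not. They were 3000.2, 3479, 3443 and 3189 untreated and 2474, 2752, 3486, 3550 and 3065 resistant. Groups overlapped, and the difference of -0.11 ± 0.20 (SE) did not pass the test (adjusted p = 0.819). The line-by-drug term, A498 minus 786-O, was 0.84 ± 0.28 (SE) with adjusted p = 0.0748, above the threshold. Fitted on the 19 arrays of the sorafenib arms alone, the same term passed it (adjusted p = 0.00830), and over the other settings its adjusted p reached 0.142.

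Fibroblast and pericyte marker signal fell in the tumours in which JAG1 fell. Its sum over 15 markers went from 9053 to 12325 in untreated to 3677 to 5840.2 in sorafenib-resistant 786-O. Of 12 tested markers 7 fell (58.33%, beside 15.2% of all genes called), among them COL1A1, COL1A2, COL3A1 and RGS5. In A498 the same sum was 7680 to 17050.2 untreated and 11335 to 25467 resistant. There 0 of 12 were called (2 at an unadjusted p under 0.05), beside 6.34% of all genes. With sunitinib it was 5189 to 9909 untreated and 4508 to 8602 resistant, with RGS5 alone called as lower (8.33%, beside 5.06% of all genes). Within groups, over 28 tumours, JAG1 and this sum had a Pearson r of 0.28 between deviations from the group means. The stroma came from the mouse and the arrays carry human probes. Even so, COL1A1, COL1A2, COL3A1, ACTA2 and RGS5 were above the filter's limit on all 28 arrays. Whether the marker signal came from mouse stroma or from the human carcinoma cells was not tested. The part of fibroblasts and pericytes in the JAG1 values was not tested either.

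**Figure D2:**
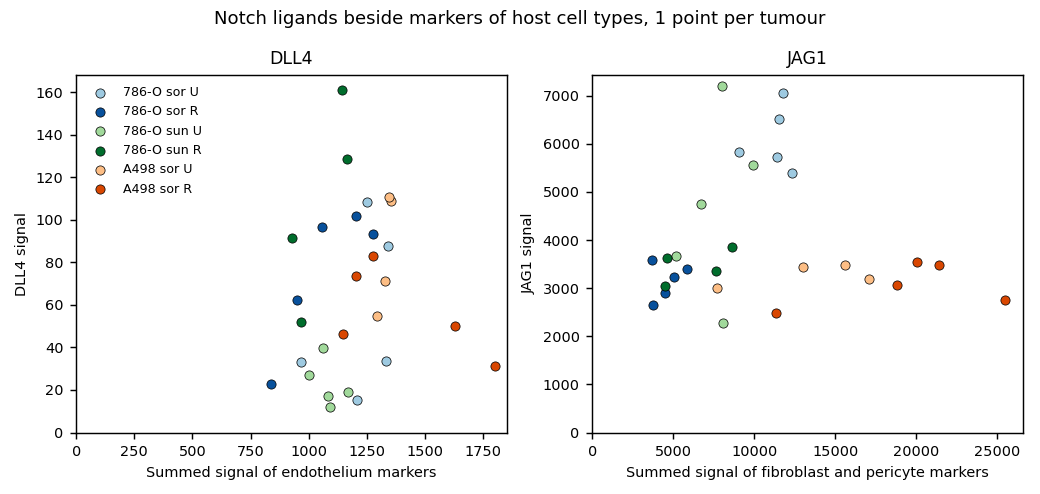
Left, DLL4 signal against the summed signal of 20 endothelium markers; right, JAG1 signal against that of 15 fibroblast and pericyte markers; each point is 1 tumour, with groups coloured as in the legend (sor and sun, drug arm; U, untreated; R, resistant). Sunitinib-resistant tumours stand higher in DLL4 at endothelium sums of 926.4 to 1165.7, beside 1003.5 to 1169.6 in their untreated group; sorafenib-resistant 786-O tumours are lower on both axes of the right panel.

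JAG2, the second Jagged ligand, was near the middle of the signal range and moved little. In 786-O with sorafenib it gave 163.4, 169.2, 222.4, 243.9 and 183.2 untreated and 166.5, 140.9, 203.7, 196.1 and 147.1 resistant. Overlapping groups gave a difference of -0.18 ± 0.11 (SE; adjusted p = 0.309). A498 values were 124.2 to 181.0 untreated (median 135.1) and 138.8 to 148.0 resistant (median 145.0), a difference of 0.02 ± 0.12 (SE; adjusted p = 0.962). Sunitinib-arm values were 143.4 to 193.9 untreated and 145.2 to 165.6 resistant, a difference of -0.09 ± 0.12 (SE).

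Among the receptors, NOTCH2 rose in sorafenib-resistant 786-O tumours. Its signals were 4136, 3628, 3945, 3793 and 3762 untreated and 4578, 5246, 5657, 5666 and 6210.4 resistant. All resistant tumours stood above all untreated ones, by 0.50 ± 0.09 (SE; limma adjusted p = 4.99e-04), and by 0.45 to 0.56 when any 1 tumour was left out. Of its 4 probe sets 3 passed the test, with differences of 0.41 to 0.50, and 202445_s_at did not, with 0.16 ± 0.16 (SE; adjusted p = 0.585). All 4 carry the suffix that marks probes shared between transcripts or genes, so that signal from the NOTCH2NL copies of this gene cannot be told apart from its own.

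The same receptor was higher after sunitinib. Untreated tumours gave 4184, 4084, 3835, 3850.2 and 4341, and resistant tumours 4585, 6140, 5501 and 5177. Groups did not overlap, with a difference of 0.39 ± 0.10 (SE), and the other 3 probe sets gave 0.39 to 0.47. The smallest of the 3 differences was in A498, with 2898, 2845, 2477 and 3009 untreated and 2849, 3278, 3205, 3919 and 3158 resistant. These overlapped at the lowest resistant tumour, and the difference of 0.22 ± 0.10 (SE) did not pass the test (adjusted p = 0.195). The line-by-drug term of NOTCH2, -0.28 ± 0.13 (SE), did not pass it (adjusted p = 0.242).

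NOTCH1, the receptor most studied in vessels, passed the test between the untreated lines, given below, and in neither sorafenib arm. In 786-O with sorafenib its signals were 354.9, 673.1, 441.3, 340.2 and 391.8 untreated and 414.4, 318.6, 447.3, 490.3 and 376.7 resistant. One untreated tumour stood high, and the difference of -0.07 ± 0.21 (SE; adjusted p = 0.863) became 0.09 without it. In A498 the signals were 186.4, 145.2, 179.9 and 128.4 untreated and 253.7, 364.6, 208.2, 245.5 and 142.2 resistant. Of the 5 resistant tumours 4 were above all untreated ones, and the difference of 0.51 ± 0.22 (SE) did not pass the test (adjusted p = 0.172). With sunitinib the signals were 297.5 to 558.1 untreated and 397.4 to 625.1 resistant, overlapping, with a difference of 0.31 ± 0.22 (SE).

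NOTCH3, a receptor of pericytes and vascular smooth muscle, was not above 89.4 on any array and was not tested. Its brightest probe set gave 11.8 to 64.2 over all 28 tumours, with overlapping groups in each arm. Differences were -0.37 ± 0.31 (SE) in 786-O with sorafenib, 0.22 in 786-O with sunitinib and 0.37 in A498. Signals this low carry no order between groups.

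HEY1, a repressor switched on by Notch, was lower on its bright probe set in both 786-O arms. In the sorafenib arm it gave 539.6, 483.4, 473.2, 627.1 and 503.6 untreated and 347.0, 331.0, 430.8, 404.3 and 471.9 resistant. The groups just missed each other, at 471.9 against 473.2, and the difference of -0.39 ± 0.17 (SE) did not pass the test (adjusted p = 0.112). In the sunitinib arm the signals were 297.8, 365.3, 422.0, 455.4 and 448.2 untreated and 223.5, 254.3, 185.5 and 421.7 resistant, a difference of -0.57 ± 0.18 (SE). Of these 4 resistant tumours 3 were below all untreated ones. In A498 both groups lay between 191.1 and 298.4 (-0.04 ± 0.18, SE; adjusted p = 0.936).

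The second HEY1 probe set, 218839_at, went the other way where it could be read at all. In 786-O with sorafenib it gave 18.5, 19.5, 58.7, 20.6 and 21.4 untreated and 53.0, 108.0, 148.8, 18.4 and 210.6 resistant, a difference of 1.29 ± 0.42 (SE). It was below the filter and not tested. With the mean of both probe sets the difference of HEY1 in that arm was 0.45, so that its direction there depends on the probe set used.

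HES1, the other target, showed no separation in any arm. It gave 1261, 906.5, 853.1, 1403 and 854.6 untreated and 1189, 1027, 892.5, 1498 and 1053 resistant in 786-O with sorafenib. The difference was 0.11 ± 0.24 (SE; adjusted p = 0.812) with overlapping groups. In A498 the signals were 1373, 1920.2, 1969 and 941.7 untreated and 855.8, 1506, 1303, 1237 and 924.8 resistant (-0.38 ± 0.25, SE; adjusted p = 0.419). With sunitinib they were 749.2 to 1218 untreated and 549.5 to 1305 resistant, a difference of -0.21 ± 0.25 (SE). The promoter of HES1, with its pair of RBPJ cores, is shown above.

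Counted over the tested genes, 2 of 7 passed the test in sorafenib-resistant 786-O, 1 higher (NOTCH2) and 1 lower (JAG1), where 15.2% of all 13808 genes did. With 7 genes tested, this count is not read as a result about the pathway. Over single probe sets, 12.0% of 26924 passed in that arm and 4.41% in A498. In A498, 0 of 7 passed in limma (2 at an unadjusted p under 0.05), against 6.34% of all genes. The line-by-drug term passed for 0 of 7 (2 at an unadjusted p under 0.05), against 5.19%. In the sunitinib arm, used for the choice, 5.06% of all genes passed. The median difference of the 7 was -0.07 in 786-O with sorafenib, -0.09 with sunitinib and -0.04 in A498, beside -0.05, -0.01 and 0.03 over all genes tested.

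**Figure D3:**
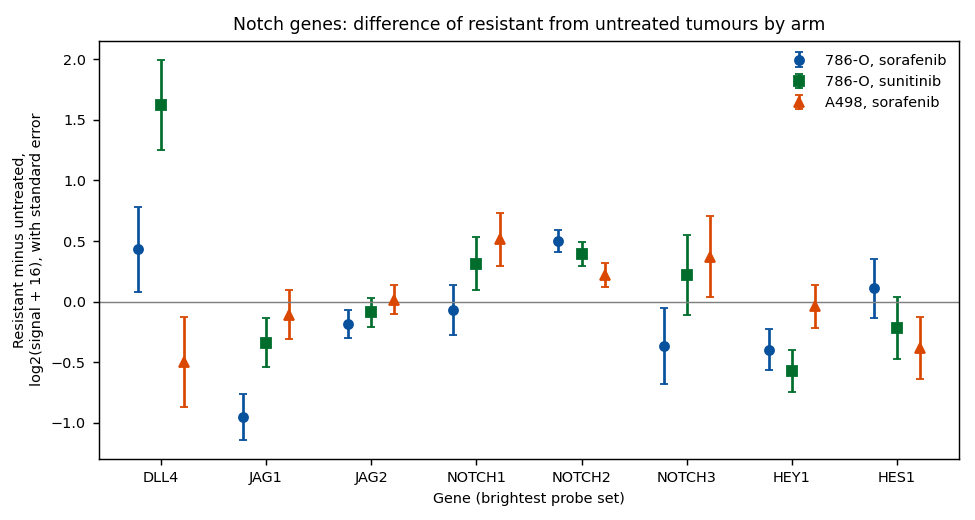
Resistant minus untreated difference of the brightest probe set of each gene, on the log2(signal + 16) scale, in the 3 arms, with standard errors from the fit over 28 arrays. DLL4 lies at 1.63 with sunitinib, JAG1 at -0.95 with sorafenib in 786-O, and the 3 NOTCH2 points at 0.22 to 0.50.

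**Figure D4:**
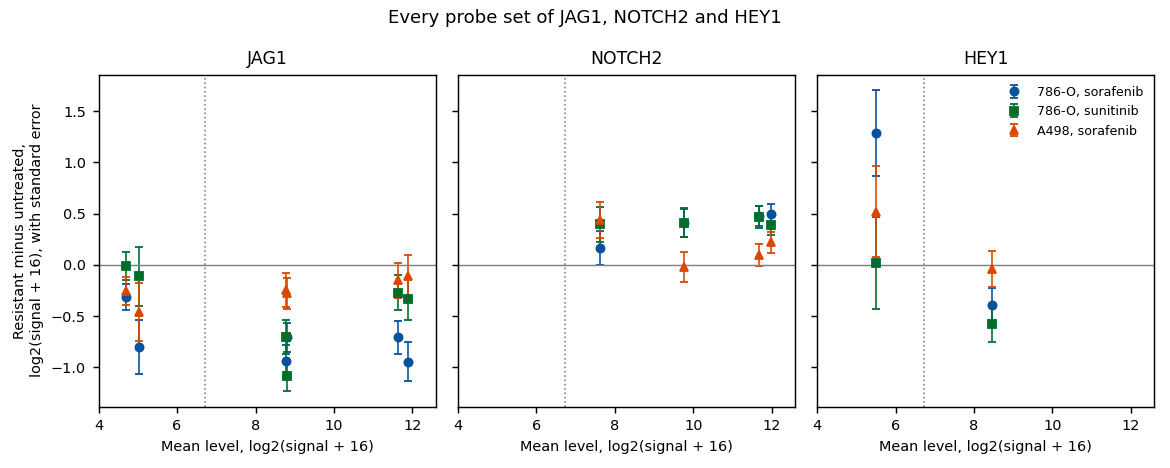
Resistant minus untreated difference (standard errors as bars) of every probe set of JAG1, NOTCH2 and HEY1 against its mean level over 28 arrays, both on the log2(signal + 16) scale, coloured by arm; the dotted line is the filter at 6.72. JAG1 points are all below 0, whereas the 2 HEY1 probe sets are on opposite sides of 0 in 786-O with sorafenib, at 1.29 and -0.39.

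Without drug, the lines themselves differed in these genes. All 7 tested genes differed between untreated A498 and the mean of both untreated 786-O groups, where 63.5% of all genes did. A498 was lower in NOTCH1 with a difference of -1.27 ± 0.19 (SE; limma adjusted p = 2.94e-06), in HEY1 with -0.84 ± 0.16 (SE; 4.20e-05), in JAG1 with -0.65 ± 0.18 (SE; 0.00237), in NOTCH2 with -0.49 ± 0.09 (SE; 2.05e-05) and in JAG2 with -0.29 ± 0.11 (SE; 0.0189). For NOTCH1, the 4 untreated A498 tumours, at 128.4 to 186.4, lay below all 10 untreated 786-O tumours, at 297.5 to 673.1. HES1 was higher by 0.58 ± 0.22 (SE; 0.0280) and DLL4 by 1.03 ± 0.33 (SE; 0.00825). The DLL4 value rests in part on the low sunitinib-arm tumours used to choose the gene, and against the sorafenib-arm group alone it was 0.66 (adjusted p = 0.126). The calls of HES1 and JAG2 were lost without A498 untreated replicate 2 (HES1 0.45, adjusted p = 0.119; JAG2 -0.26, 0.0657) or replicate 3 (HES1 0.44, 0.127; JAG2 -0.23, 0.0880). That of JAG1 was lost against the sunitinib-arm group alone (-0.42, adjusted p = 0.0787).

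Between the untreated 786-O groups of the 2 arms, 0 of 7 genes passed limma's test, against 0.275% of all genes, with 3 at an unadjusted p under 0.05. Those 3 were DLL4, JAG1 and HEY1, each higher in the sorafenib arm, by 0.73, 0.47 and 0.40. For DLL4 this contrast uses the low sunitinib-arm tumours that helped choose the gene. Its place in these counts is therefore no independent test.

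The other genes of the pathway were counted in the same way. Their lists held 64 ligands and receptors, processing enzymes, nuclear partners and targets, of which 55 were tested. In sorafenib-resistant 786-O 7 rose and 8 fell (27.27%, beside the 15.2% of all genes), with a median difference of -0.01. In A498, 2 rose and 2 fell (7.27%, beside 6.34% of all genes). In the sunitinib arm 1 rose and 1 fell (3.64%, beside 5.06%). Both shares are near those of all genes.

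Of 13 other targets tested in 786-O with sorafenib, 4 fell and 2 rose (46.15%, beside 15.2% of all genes). HES4, a relative of HES1, gave 762.1, 856.7, 773.4, 773.8 and 625.8 untreated and 329.9, 405.7, 483.5, 579.5 and 378.9 resistant, and fell without overlap by 0.80 ± 0.14 (SE; adjusted p = 3.31e-04). HES4 fell in A498 as well, from 288.8, 287.8, 412.3 and 308.9 to 182.1, 189.8, 247.0, 154.6 and 176.7 (-0.72 ± 0.15, SE; adjusted p = 0.00506), where it was not called with only the arrays of that arm (adjusted p = 0.0523). Under sunitinib its groups overlapped, at 500.6 to 709.7 untreated and 491.8 to 610.2 resistant. NRARP, a feedback inhibitor of Notch, fell from 192.4, 224.1, 172.0, 252.2 and 153.1 to 55.6, 138.6, 152.8, 97.5 and 19.3 in sorafenib-resistant 786-O (-1.17 ± 0.29, SE; adjusted p = 0.00676). It was not called when only the 10 arrays of that arm were fitted (adjusted p = 0.0735). EFNB2, the arterial ephrin, fell there by 0.64 ± 0.12 (SE; adjusted p = 4.90e-04) and rose in A498 by 0.45 ± 0.13 (SE; adjusted p = 0.0326). The A498 rise was not called without untreated replicate 1, 2 or 4 (0.36, 0.44 and 0.44) or resistant replicate 3 or 4 (both 0.39). Both targets that rose are growth genes with many other regulators: CCND1 (0.99 ± 0.12, SE; adjusted p = 2.53e-06) and MYC (0.57 ± 0.18, SE).

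Of 13 nuclear partners tested in 786-O with sorafenib, 3 rose and 0 fell (23.08%, beside 15.2% of all genes). Of 23 processing and modifying genes, 2 rose and 3 fell (21.74%). With so few genes per list, these counts are not read as results about the lists. SPEN, which joins RBPJ in repression, rose in sorafenib-resistant 786-O from 815.0, 839.8, 1069, 866.4 and 1001 to 1436, 1396, 1419, 1689 and 1429 (0.68 ± 0.13, SE; adjusted p = 9.09e-04). RBPJ itself rose from 2171, 2751, 2886, 2442 and 2664 to 3289.7, 3290.2, 2976, 3397 and 3432, by 0.35 ± 0.10 (SE; adjusted p = 0.0150), and was not called without untreated replicate 1 (0.29, adjusted p = 0.0509). The acetyltransferase KAT2B rose by 0.55, though not without resistant replicate 3 (0.48, adjusted p = 0.0522). MFNG, a Fringe enzyme that alters how receptors respond to each ligand, fell from 386.7, 501.8, 517.5, 408.9 and 394.1 to 175.2, 213.3, 135.9, 148.0 and 201.7 (-1.27 ± 0.21, SE; adjusted p = 1.60e-04). SPEN and MFNG kept their direction and lost the call when a gene's probe sets were averaged (adjusted p = 0.108 and 0.0589). The sheddase ADAM17 rose by 0.30 and DTX3L by 0.37, while DTX4 fell by 0.55 and ADAM10 by 0.34. Of the 6 other ligands and receptors tested, 1 was called (16.67%, near the share of all genes). It was MFAP5, a matrix protein that binds Jagged ligands, which fell (-1.13 ± 0.22, SE; adjusted p = 7.47e-04).

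Several of these smaller calls hung on single tumours of the sorafenib arm. In fits without 1 of its 10 tumours, ADAM10 lost its call in 7 fits (all but those without untreated replicate 3, resistant replicate 1 or resistant replicate 4), with adjusted p up to 0.101. MYC lost it in 7 (all but those without untreated replicate 3 or 4 or resistant replicate 5), up to 0.115. DTX4 lost it without untreated replicate 1, 3 or 5 or resistant replicate 2, 4 or 5, up to 0.0725. DTX3L lost it without untreated replicate 3 or 4 or resistant replicate 4, up to 0.0760, and ADAM17 without resistant replicate 4 (0.25, adjusted p = 0.0516). The remaining call, CDKN1A (-0.41), was lost in 7 fits (all but those without untreated replicate 4 or resistant replicate 1 or 3), up to 0.136. Leaving out untreated replicate 5 and resistant replicate 4 together, the arrays of highest ACTB 3-prime minus 5-prime difference (1.03 and 0.67), cut the genes called in that arm from 2092 to 1233. The calls of RBPJ, KAT2B, ADAM17, ADAM10, DTX4, MYC and CDKN1A were lost with them, and JAG1 and NOTCH2 kept theirs (-0.93 and 0.48). HES4, EFNB2, CCND1 and MFAP5 were called in every setting that could give them a value.

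In the other arms the pathway calls were few. A498 added DTX4 (-0.81 ± 0.17, SE; adjusted p = 0.00649) as lower and SPEN (0.50 ± 0.14, SE; adjusted p = 0.0349) as higher. The SPEN call was lost without untreated replicate 1, 2 or 4 (0.41, 0.48 and 0.48) or resistant replicate 2 or 4 (0.40 and 0.46). Under sunitinib MAML3, a coactivator of the RBPJ complex, fell from 140.2, 220.9, 153.1, 99.4 and 92.7 to 56.2, 39.7, 51.1 and 59.4 (-1.17 ± 0.23, SE; adjusted p = 0.00473), with no overlap. MAML3 was dim, above 89.4 on 5 of 5 untreated and 0 of 4 resistant arrays of that arm. CCND1 rose there by 0.54 ± 0.13 (SE; adjusted p = 0.0128), though not without resistant replicate 3 (0.47, adjusted p = 0.0641) or 4 (0.49, adjusted p = 0.0509).

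**Figure D5:**
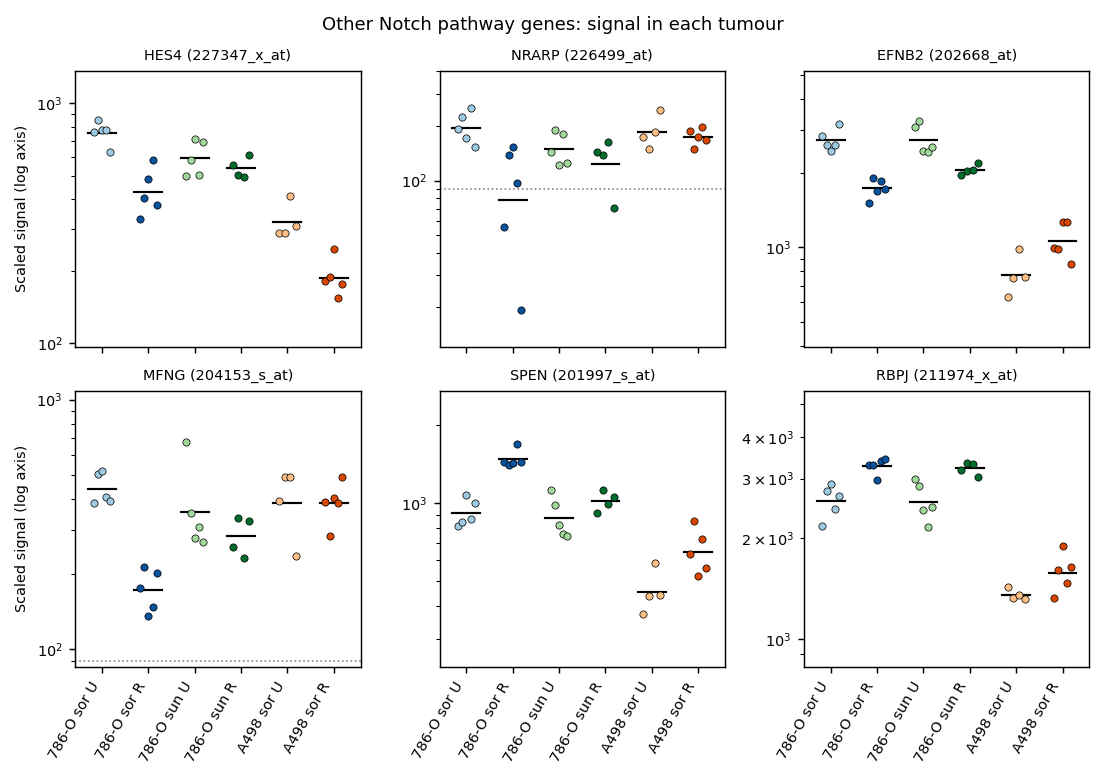
Scaled signal (log axis) of 6 other Notch pathway genes in every tumour, with group means taken on the log2(signal + 16) scale as bars and signal 89.4 dotted where it falls in the panel; sor and sun are the drug arms, U untreated and R resistant. HES4 is lower in resistant than in untreated tumours in both sorafenib arms, without overlap, and MFNG is lower in sorafenib-resistant 786-O at 135.9 to 213.3.

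Genes of vessel sprouting, among which DLL4 acts, were listed as well. Of 10 tested in 786-O, 7 rose with sorafenib (15.2% of all genes were called), the largest being ANGPTL4 (2.65), NRP2 (1.29), NRP1 (0.97) and CXCR4 (0.97), and all but CXCR4 of these were called in every setting tried. Without the 2 arrays of highest ACTB difference CXCR4 (adjusted p = 0.113), UNC5B and VEGFA were not called, which left 4 of the 7. UNC5B was called in 11 of 21 settings and lost the call without untreated replicate 1, 2, 4 or 5 or resistant replicate 4 or 5 (adjusted p up to 0.133). VEGFA was called in 16 of 20, and not without untreated replicate 3 or resistant replicate 4 (0.29 and 0.31). With sunitinib 3 of 10 rose (5.06% of all genes were called), ANGPTL4 (1.29), ADM (0.55) and VEGFA (0.43). ANGPTL4 lost that call without untreated replicate 2 or 3 (1.04 and 1.16) or resistant replicate 3 or 4 (1.10 and 1.22), and VEGFA without resistant replicate 2 or 3 (0.40 and 0.36). In A498, 0 of 10 were called in limma (6.34% of all genes were called), with 2 at an unadjusted p under 0.05. VEGFA signals in 786-O of the sorafenib arm were 13508 to 18483 untreated and 17953 to 23069 resistant. Whether the signals of these genes came from the human carcinoma cells or from mouse vessels was not tested.

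Tumours within a group did not vary together in most of these genes. Over 28 tumours, Pearson r between deviations from the group means was 0.55 for HEY1 with HES1. The other 20 pairs of the 7 tested genes lay between -0.23 and 0.29. Deviations of DLL4 and the endothelial sum had an r of 0.28. Larger values with a marker sum were 0.47 for HES1 with endothelium and -0.47 for NOTCH2 with skeletal muscle. HEY1 with the renal carcinoma and tubule sum gave -0.38. None of these was tested. The 5 tested genes most like DLL4 by this measure were KCNS1 (0.72), SYT17 (0.71), ZCCHC18 (0.68), ZXDC (0.68) and SMPX (0.68). They are the highest values picked from all 13808 tested genes, and how high such a maximum runs without any relation was not tested. Mean log2 levels of KCNS1, SYT17 and SMPX were 6.29, 6.35 and 5.87, under the filter's limit of 6.72. Those of ZCCHC18 and ZXDC were 6.80 and 8.72. No relation to DLL4 is read from this list. The deviations share the array of each tumour and its scaling.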

How the data were processed

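RNA of 28 xenograft tumours was measured on 1-colour arrays. The values are intensity values that the authors deposited, linear and scaled per array; RMA and MAS5 are listed, with no step or version, in the submitters' processing notes. Of 54675 probe sets, 62 were controls, 41091 had 1 gene symbol, 1801 several and 11721 no entry; names were updated by Entrez ID (41037) or symbol (54). Values were used as log2(signal + 16), and each gene by its probe set of highest mean. All 28 arrays entered 1 limma 3.58.1 model (R 4.3.3) with a mean for each group and no covariates, which was tested on simulated data; plots used matplotlib 3.10.9. Groups come from the labels, and replicate numbers follow the order of deposition and pair nothing.

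The genes and lists were chosen with earlier results of these data known. Named were every member, up to 4 called genes per pathway list and direction, up to 4 markers per cell type, and the 5 genes most like DLL4. Alternatives were other pseudocounts, filters, probe set choices, quantile normalisation, array weights, GAPDH as covariate, fewer arrays, and each tumour left out. Some listed genes are not reported here.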

Additional observations from a re-analysis of the deposited data

Results flagged for a closer look

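In 8 genes of the pathway and sprouting lists the sorafenib difference itself differed between the lines (A498 minus 786-O, limma interaction term, adjusted p under 0.05). They were 4 of the 55 pathway genes tested (7.27%) and 4 of the 10 sprouting genes tested (40.0%). Over all genes 5.19% passed, and the pathway share is near that. The term was positive for MFAP5 (1.77), MFNG (1.27) and EFNB2 (1.10), and negative for CCND1 (-0.75), NRP1 (-0.95), NRP2 (-1.40), ADM (-0.59) and ANGPTL4 (-2.27). EFNB2 fell in 786-O and rose in A498. Line and title number cannot be told apart in this term. The term of MFNG was not called when a gene's probe sets were averaged (adjusted p = 0.217), nor that of NRP1 (0.0567). The term of ADM was not called in 8 of the 19 fits without 1 tumour (786-O untreated replicate 5 or resistant replicate 4; A498 untreated replicate 1, 2 or 4 or resistant replicate 3, 4 or 5), with adjusted p up to 0.0606. By Dixon's test at the 95% level, run on the 4 or 5 tumours of each group, 0 of the 48 gene and group combinations of the 8 Notch genes held an outlying tumour; this includes the high untreated NOTCH1 tumour of the 786-O sorafenib arm.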

How the results depend on the processing

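JAG1 fell and NOTCH2 rose in sorafenib-resistant 786-O in all 20 alternatives that could give each a value, with differences of -0.997 to -0.74 and 0.39 to 0.56. Leaving out probe sets with shared-probe suffixes removed both genes, so that 0 called genes of the set remained there (1508 of all 11018 genes were called). Between the untreated lines 3 remained (6760 of all 11018), and 5 to 7 when 1 tumour was left out (8243 to 8733 of all 13808). With only the arrays of the sorafenib arms, 1 line-by-drug term (JAG1) was called, beside 629 of all 13808 genes. The sunitinib difference of DLL4 was 2.18 and 0.95 with pseudocounts of 1 and 64. Pathway and sprouting genes called in that arm numbered 5, of 55 and 10 tested, where 698 of all 13808 genes were called. They numbered 3 with the mean of probe sets (515 of all 12520 genes) and 3 without shared-probe sets (489 of 11018). With only its own arrays 1 was called (259 of 13808), and 2 to 6 when 1 tumour was left out (313 to 659). The count over all genes was lower than 698 in each of these settings.

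Among the Notch genes, the signs that turned belonged to differences that were not called or, under sunitinib, not tested. With the mean of probe sets, HEY1 became 0.45 in 786-O with sorafenib, 0.24 in A498 and -0.21 in the line-by-drug term, HES1 -0.033 in 786-O with sorafenib, NOTCH2 0.04 between untreated arms, and NOTCH1 -0.16 under sunitinib. Without 1 tumour, NOTCH1 ranged from -0.149 to 0.089 in 786-O with sorafenib and from -0.0092 to 0.282 between untreated arms, and in A498 HEY1 ranged from -0.145 to 0.037 and JAG2 from -0.042 to 0.121. Quantile normalisation gave JAG2 -0.0575 in A498 and 0.0061 under sunitinib. HES1 was -0.0629 in 786-O with sorafenib without the 2 arrays of highest ACTB difference, an alternative chosen after seeing the data. The causes were not tested. DLL4 and NOTCH3 are limited by signals near background, and groups of 4 or 5 tumours limit all tests.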
